A study of Mus musculus with 27 samples.

Results

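Hepatic stellate cells (HSCs) taken from mice 24 h after a first injection of carbon tetrachloride (CCl4) were compared with HSCs of healthy mice. All 7 libraries of these 2 groups entered, out of 27 in the series: 3 libraries of acute 24 h HSCs and 4 libraries of healthy HSCs. The cells came from male Balb/c mice of 10 to 12 weeks. The injected mice had received 1 intraperitoneal injection of CCl4 in mineral oil (0.5 µL per g body weight), and the healthy mice had not been injected, so CCl4 and its oil vehicle cannot be told apart here. Flow sorting had relied on the light that stored retinoids emit under ultraviolet excitation, so that HSCs were selected for holding such droplets. Whether a library is 1 mouse is not given in the sources used here, so p-values measure the spread between libraries. That spread was estimated over all 27 libraries of the series. RNA was sequenced in bulk, so that fewer cells of a type and less RNA per cell cannot be told apart.

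HSCs are the pericytes of the liver sinusoid and the main store of vitamin A in the body. CCl4 is turned into a toxic radical by cytochrome P450 in the hepatocytes around the central vein, and these hepatocytes die within the first day. Quiescent HSCs answer such injury by losing their retinoid-storing state, gaining contractile filaments and, later, depositing scar matrix, and the first day is the initiation of this change.

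The libraries held 10792560 to 12596066 counts in the healthy group and 11849616 to 12261327 in the acute 24 h group. Levels are given in CPM, the counts of a gene relative to the total of its library after scaling by the trimmed mean of M values (TMM), and changes as log2 fold changes with their standard error (SE). A gene was called when the quasi-likelihood test of edgeR gave a Benjamini-Hochberg adjusted p below 0.05 and the change was above 2-fold. Of 18758 genes tested, 1765 were called higher (9.41%) and 2353 lower (12.5%) in acute 24 h than in healthy HSCs. The libraries of the groups did not overlap for 7469 genes (39.8%). Healthy replicate 4 stood apart from the other 3 healthy libraries, with correlations of log2 CPM of 0.902 to 0.908 to them, against 0.943 to 0.956 among those 3 and 0.953 to 0.960 among the acute 24 h libraries. Without it, the counts were 1779 higher and 2299 lower.

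Markers of HSCs dominated all 7 libraries. The summed level of 11 HSC markers was 21023 to 27455 CPM in healthy and 12502 to 17906 CPM in acute 24 h libraries, with Lrat, Reln, Des, Pdgfrb and Colec11 detected in all 7. Hepatocyte RNA was present too, and its amount differed between the groups. The sum of 20 hepatocyte markers ran from 1420 to 8582 CPM in healthy libraries, highest in replicate 4, and from 776 to 1087 CPM in acute 24 h libraries, without overlap. Of these 20 markers 16 were called lower (median log2 fold change -3.80). The 15 genes with the strongest decrease by the naming rule, led by Bhmt, Car3 and Uox, are enzymes and plasma proteins typical of hepatocytes. Bhmt, for example, measured 31.8, 51.6, 42.6 and 364 CPM in healthy and 0.178, 0.608 and 0.702 CPM in acute 24 h libraries. With the mean log2 CPM of the hepatocyte markers as a term in the fit, 1296 genes were higher and 1378 lower. Where this term ends a call that the text gives, the adjusted p with the term is given beside it, but whether hepatocyte RNA accounts for such a call was not tested.

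**Figure D1:**
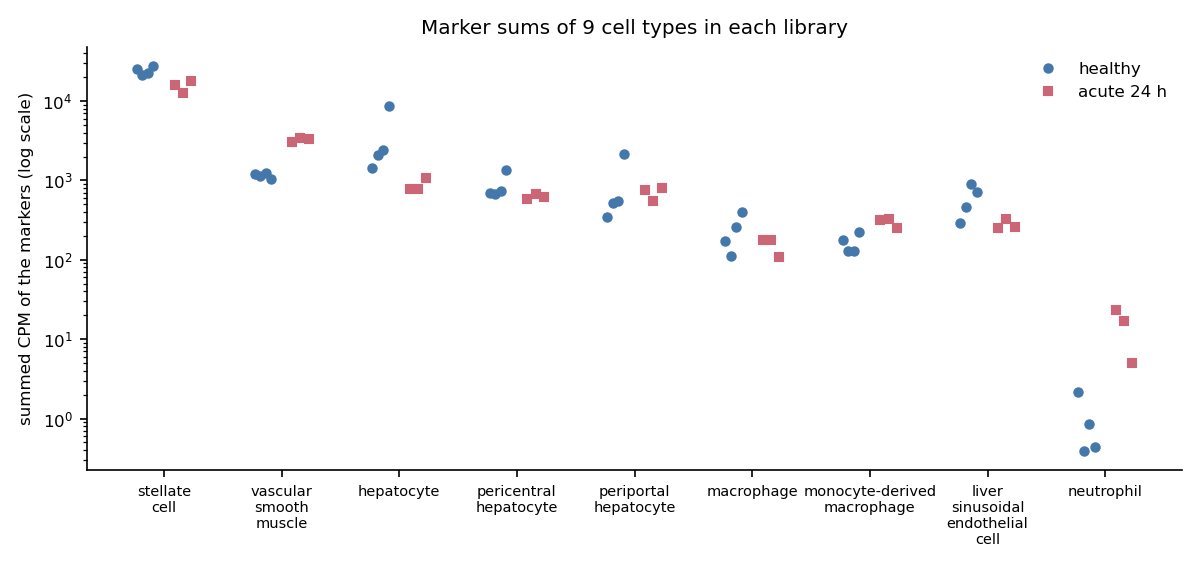
Summed CPM (log scale) of the marker genes of 9 cell types in each of the 4 healthy libraries (circles) and 3 acute 24 h libraries (squares). HSC markers sum to at least 12502 CPM in every library, hepatocyte markers reach 8582 CPM in healthy replicate 4, and neutrophil markers reach at most 23.0 CPM.

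Neutrophil RNA was scarce. Neutrophil markers summed to 0.390 to 2.18 CPM in healthy and 5.004 to 23.0 CPM in acute 24 h libraries, and 6 of 8 tested were called higher. S100a9, a calcium-binding neutrophil protein, measured 1.63, 0, 0 and 0 CPM in healthy and 11.1, 7.64 and 2.02 CPM in acute 24 h libraries. None of 14 macrophage markers was higher and 5 were lower, and 2 were lower without healthy replicate 4, without acute 24 h replicate 1 or without acute 24 h replicate 3, and none with the hepatocyte term. Of 8 markers of monocyte-derived macrophages Vcan and Itgam were higher (1 of them when healthy replicate 1, 2 or 4 or acute 24 h replicate 1 or 3 was left out) and Cx3cr1 was lower, while Ly6c2 was at 0 to 1.21 CPM in healthy and 0.527 to 1.04 CPM in acute 24 h libraries. Of 15 markers of liver sinusoidal endothelial cells 9 were lower and 1 (Lyve1) was higher, though not without healthy replicate 1 or 2 or acute 24 h replicate 1, and 1 was lower with the hepatocyte term.

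The promoters of 7 genes that rose are shown, and each is printed only because it holds the word searched. The results below touch AP-1 partners, the plasminogen system, IL-6 family cytokines, metallothioneins and serum response factor targets, whose factors read short DNA words. The bases before the RefSeq start (GRCm38.p6) are printed 5′ to 3′ on the gene's own strand, up to 250 bases and without annotated exon. Capitals mark the word searched, on both strands.
The AP-1 word TGAGTCA, bound by Fos and Jun family dimers, is marked in these sequences:
Plaur, chr7:24462233-24462482, plus strand: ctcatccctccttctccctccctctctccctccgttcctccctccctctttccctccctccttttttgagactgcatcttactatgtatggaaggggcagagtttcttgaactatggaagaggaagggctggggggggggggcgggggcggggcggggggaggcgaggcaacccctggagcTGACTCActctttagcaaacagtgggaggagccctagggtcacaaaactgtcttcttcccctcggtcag
Mmp3, chr9:7445572-7445821, plus strand: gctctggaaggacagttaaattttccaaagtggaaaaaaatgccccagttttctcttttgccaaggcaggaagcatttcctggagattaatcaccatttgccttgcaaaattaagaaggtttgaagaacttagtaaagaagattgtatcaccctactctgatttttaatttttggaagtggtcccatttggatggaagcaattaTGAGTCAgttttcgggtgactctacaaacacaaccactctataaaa
Lif, chr11:4257318-4257556, plus strand: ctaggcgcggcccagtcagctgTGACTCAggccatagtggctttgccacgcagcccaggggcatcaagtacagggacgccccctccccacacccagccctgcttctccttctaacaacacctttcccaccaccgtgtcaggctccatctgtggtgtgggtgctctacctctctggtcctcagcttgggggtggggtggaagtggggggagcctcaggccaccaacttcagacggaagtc
Il11, chr7:4778142-4778391, minus strand: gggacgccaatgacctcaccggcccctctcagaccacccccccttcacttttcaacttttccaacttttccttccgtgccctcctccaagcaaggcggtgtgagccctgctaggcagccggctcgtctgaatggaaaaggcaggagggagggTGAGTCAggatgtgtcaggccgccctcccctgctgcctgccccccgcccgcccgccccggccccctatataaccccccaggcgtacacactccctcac
The metal response element (TGCACNC or TGCGCNC) is marked next:
Mt1, chr8:94178839-94179081, plus strand: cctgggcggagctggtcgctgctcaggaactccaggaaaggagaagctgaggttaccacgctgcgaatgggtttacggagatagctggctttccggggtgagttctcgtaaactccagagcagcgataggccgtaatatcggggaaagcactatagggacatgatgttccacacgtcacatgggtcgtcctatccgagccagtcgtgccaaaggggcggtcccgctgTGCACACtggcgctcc
The cyclic AMP response element TGACGTCA is marked next:
Ch25h, chr19:34475165-34475382, minus strand: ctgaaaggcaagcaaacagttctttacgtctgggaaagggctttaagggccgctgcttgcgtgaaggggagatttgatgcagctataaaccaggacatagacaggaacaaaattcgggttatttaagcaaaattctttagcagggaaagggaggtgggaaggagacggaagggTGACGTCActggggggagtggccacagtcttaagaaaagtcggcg
The CArG box, the word of serum response factor, is marked last:
Myl9, chr2:156775214-156775419, plus strand: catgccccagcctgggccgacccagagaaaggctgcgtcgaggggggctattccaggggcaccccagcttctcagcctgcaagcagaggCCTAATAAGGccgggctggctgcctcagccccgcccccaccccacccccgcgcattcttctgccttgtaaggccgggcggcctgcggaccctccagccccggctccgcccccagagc

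The AP-1 word lay 69 bases before the start of Plaur, 46 bases before that of Mmp3, 228 bases before that of Lif and 98 bases before 1 of the 2 starts of Il11. Of 32851 RefSeq promoter windows 4.46% held this word in the 250 bases before the start, and 3.46% of the 14868 windows of genes tested. The share was 6.48% of 1158 windows of genes called higher and 3.64% of 2116 windows of genes called lower. The CArG box was in 1.47% of all windows, 1.12% of those of genes tested, 2.42% of those of genes called higher and 1.04% of those of genes called lower. The cyclic AMP response element was in 1.55% of all windows, 2.33% for genes tested, 3.2% for genes called higher and 1.18% for genes called lower. The short metal response element was in 21.4% of all windows, 28.6% for genes tested, 28.6% for genes called higher and 28.4% for genes called lower. Of the 15 genes with the largest increase by the naming rule 12 had a window. Among them only Plaur and Mt2 held the AP-1 word, only Tceal8 the CArG box and only Ch25h the cyclic AMP response element. Windows of Mt2, Cxcl14, Alpl and Rin1 held the metal response element, and those of Tceal8 and Rin1 the TEAD word. Acta2, Ankrd1, Tnfrsf12a, Serpina3n and Tuba1c held none of these words, and near variants of a word were not counted. All of these are counts of letters, without a test and without any measure of binding.

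**Figure D2:**
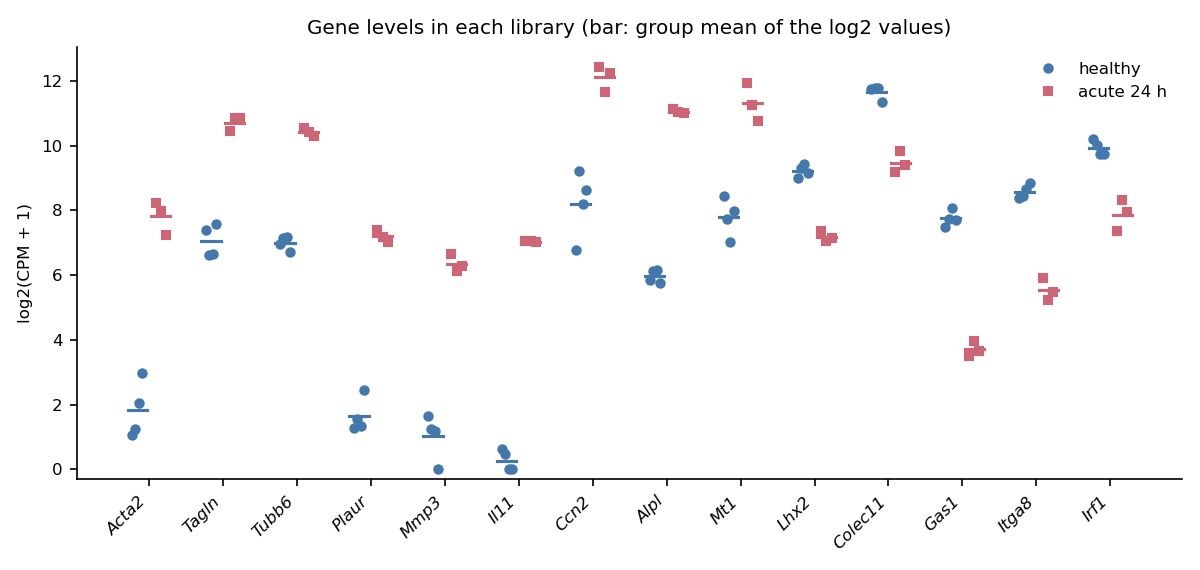
Levels of 14 genes as log2(CPM + 1) in each of the 4 healthy libraries (circles) and 3 acute 24 h libraries (squares), with a bar at the group mean of the log2 values. For every gene drawn, the libraries of both groups are separated; 9 genes are higher and 5 lower in acute 24 h HSCs.

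Genes of the contractile apparatus rose already on the first day. Of 32 smooth muscle and stress fibre genes tested, 15 were called higher and none lower (median log2 fold change 1.06, against -0.12 over all genes tested). Acta2 (ENSMUSG00000035783, chr19:34241090-34255590), the smooth muscle actin by which myofibroblasts are recognised, measured 1.09, 1.37, 3.12 and 6.93 CPM in the 4 healthy libraries and 301, 253 and 149.5 CPM in the 3 acute 24 h libraries. The groups did not overlap, and the log2 fold change was 6.22 ± 0.88 (SE, adjusted p = 1.12e-05). Tagln, which encodes the actin-binding protein transgelin, was abundant before injury, at 97.2 to 190.2 CPM, and reached 1408, 1834 and 1834 CPM (log2 fold change 3.61 ± 0.52). Other members higher were the tropomyosin genes Tpm2 (2.95 ± 0.49) and Tpm4 (1.72 ± 0.25), the myosin light chain gene Myl9 (2.26 ± 0.54), the actin crosslinker gene Actn1 (2.07 ± 0.27) and the Z-line protein gene Pdlim7 (2.41 ± 0.26). Actb, the cytoplasmic actin gene, went from 1037 to 1639 CPM to 2885 to 4215 CPM (1.36 ± 0.27), although reads of actin genes can be split between near copies. The summed level of the 32 genes was 10902 to 12511 CPM in healthy and 21651 to 23431 CPM in acute 24 h libraries. Myh11 and Cnn1, of differentiated smooth muscle, were not called, nor were Mylk and Vcl, and Des, the intermediate filament of HSCs, went from 446 to 584 CPM to 861 to 1039 CPM, a change below 2-fold. Of 8 markers of vascular smooth muscle Acta2 and Tagln were higher and Synpo2 was lower, and their sum was 1039 to 1238 CPM in healthy and 3075 to 3421 CPM in acute 24 h libraries. The part of such cells in these levels was not tested. With the hepatocyte term 9 of the 15 calls were made.

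Tubulins moved with the actin genes: 6 of 11 alpha and beta tubulins tested were higher and none lower. Tubb6, a beta tubulin of wound and muscle cells, measured 124, 139.8, 143 and 104 CPM in healthy and 1503, 1369 and 1267 CPM in acute 24 h libraries (log2 fold change 3.43 ± 0.21, adjusted p = 1.97e-10). The alpha tubulin genes are nearly identical to each other and reads can be split between them. The extreme fold change of Tuba1c, from 0.506 to 1.21 CPM to 450.2 to 539 CPM, is therefore uncertain, while Tuba1a, at 465 to 525 CPM in healthy and 864 to 999 CPM in acute 24 h libraries, moved by less than 2-fold.

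Collagen genes, in contrast, hardly moved as a group. Of 27 fibrillar collagens and collagen processing enzymes 4 were higher and 3 lower (median log2 fold change 0.10). Col3a1, the most abundant of them, measured 2677, 2744, 2619 and 2579 CPM in healthy and 2731, 1518 and 2063 CPM in acute 24 h HSCs, and Col1a2 was not called either. Col1a1 rose from 148 to 304 CPM to 528 to 616 CPM (log2 fold change 1.29 ± 0.36, adjusted p = 0.00755, and adjusted p = 0.255 with the hepatocyte term). The larger increases were in genes that organise collagen: Lox, the enzyme that crosslinks collagen and elastin (4.03 ± 0.49), Col12a1, a collagen that sits on the surface of fibrils (3.91 ± 0.44), and the crosslinking enzyme gene Loxl2 (2.03 ± 0.41, adjusted p = 0.10 with the hepatocyte term). With that term 2 of the 4 were called. Col14a1, also a fibril-associated collagen, fell (-1.74 ± 0.35), and so did Col5a3 (-2.62 ± 0.43).

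The basement membrane changed in composition. Col4a1 and Col4a2, which form the type IV collagen network of the sinusoid, rose from 793 to 1117 CPM to 2616 to 4118 CPM and from 646 to 859.9 CPM to 1839 to 2458 CPM (log2 fold changes 1.95 ± 0.26 and 1.56 ± 0.21). Lama1, a laminin chain, fell from 57.6 to 187 CPM to 10.3 to 18.1 CPM (-3.39 ± 0.40), while the laminin chain gene Lama5 rose (1.70 ± 0.37). In all, 4 of 21 basement membrane genes were higher and 5 lower, or 3 lower without acute 24 h replicate 2.

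Genes of matrix breakdown moved in both directions. Of 23 matrix proteases and inhibitors 9 were higher and 5 lower (median log2 fold change 0.71). Among these 9, Mmp8, Mmp9 and Mmp10 had at most 3 counts in every healthy library. Mmp8 and Mmp9 are also among the neutrophil markers, and the part of neutrophils in their levels was not tested. Mmp3, stromelysin, measured 2.18, 1.37, 1.26 and 0 CPM in healthy and 100.4, 68.5 and 77.4 CPM in acute 24 h libraries (6.09 ± 0.66). Mmp19 (4.04 ± 0.34) and the aggrecanase gene Adamts4 (3.44 ± 0.47) rose as well. Timp1, which inhibits these proteases, rose from 0 to 1.27 CPM to 91.0 to 102 CPM. Mmp2, the gelatinase that quiescent HSCs make, fell from 277 to 450.1 CPM to 69.97 to 122 CPM (-1.94 ± 0.26). Mmp15 (-3.93 ± 0.37), Adamts5 (-2.13 ± 0.29) and Reck, a membrane inhibitor of such proteases (-1.37 ± 0.20), were lower too.

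Genes of the plasminogen system rose in part. Plaur, the urokinase receptor, measured 1.45, 1.95, 1.52 and 4.51 CPM in healthy and 167, 144 and 129.8 CPM in acute 24 h libraries (log2 fold change 5.95 ± 0.43, adjusted p = 1.10e-09). Urokinase itself (Plau, 3.76 ± 0.44), tissue plasminogen activator (Plat, 3.62 ± 0.31) and tissue factor, the trigger of coagulation (F3, 3.47 ± 0.38), also rose. Of 15 genes tested 5 were higher, and the 2 lower, Plg and Serpinf2, are hepatocyte products.

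Matricellular proteins, which modify matrix signals without building fibres, rose in part: 9 of 24 were higher and 2 lower, or 4 lower without acute 24 h replicate 1. Thbs1, an activator of latent TGF-beta, measured 79.6, 114, 66.5 and 133 CPM in healthy and 2162, 1324 and 2709 CPM in acute 24 h libraries (4.40 ± 0.37). Ccn2, connective tissue growth factor, had the largest gain in CPM of any gene called without overlap, from 108, 595, 293 and 396 CPM to 5505, 3241 and 4819 CPM (3.70 ± 0.89). Its relative Ccn1 was high in both groups, at 1776 to 4286 CPM in healthy and 2772 to 2917 CPM in acute 24 h libraries, and was not called. Tenascin C (Tnc, 3.28 ± 0.42), versican (Vcan, 4.47 ± 0.40), the hyaluronan synthase gene Has1 (4.00 ± 0.53), the hyaluronan binder Tnfaip6 (2.70 ± 0.36) and the hyaluronan receptor Cd44 (1.85 ± 0.21) rose too. Of 16 integrins 3 were higher and 2 lower, or 1 lower without acute 24 h replicate 1 or 3 and 1 higher with the hepatocyte term. Itga5, a chain of the fibronectin receptor, rose from 41.0 to 49.9 CPM to 693, 149 and 517 CPM (3.30 ± 0.32), and Itga8, whose product binds nephronectin and fibronectin, fell from 336 to 459 CPM to 36.9 to 59.7 CPM (-3.04 ± 0.49).

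**Figure D3:**
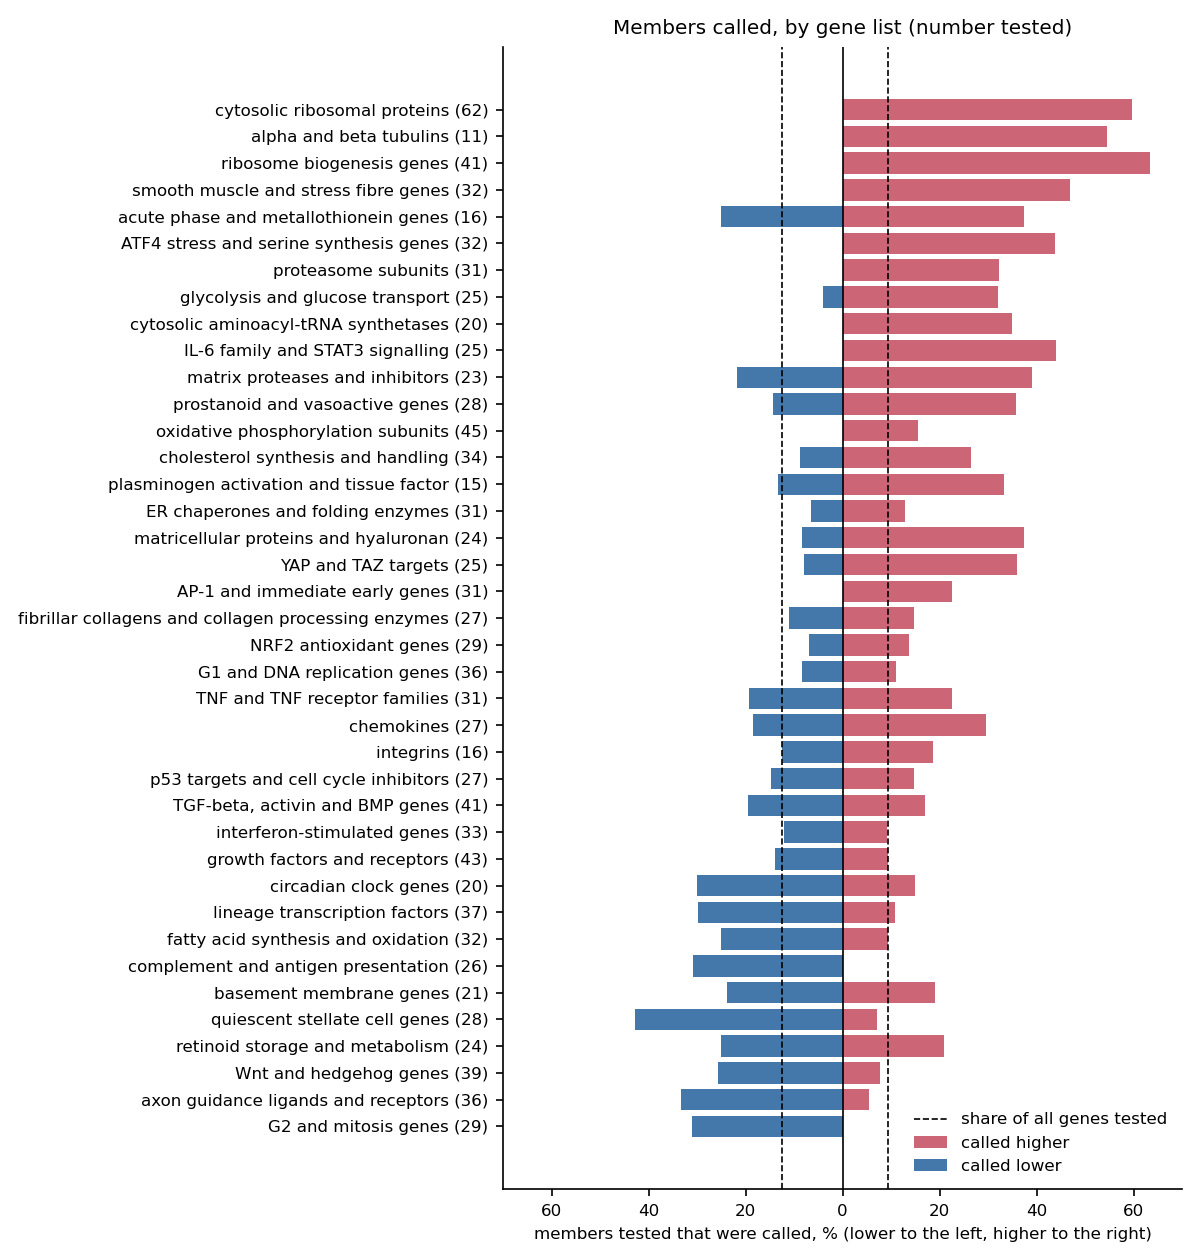
Share of the tested members of 39 functional gene lists that were called lower (left) or higher (right) in acute 24 h HSCs, ordered by the median log2 fold change of the list, with the number tested in parentheses. Dashed lines mark the shares over all genes tested, 12.5% lower and 9.41% higher; ribosome biogenesis genes and ribosomal proteins reach the longest bars to the right and quiescent HSC genes to the left.

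Immediate early transcription factors were already high in the healthy libraries. Livers of both groups had been perfused and the cells sorted before RNA was taken, and the part of this isolation in these levels was not tested. Fos measured 10209, 9639.6, 8883 and 8864 CPM in healthy and 8747, 11888 and 8554 CPM in acute 24 h libraries, and Junb, Jund, Fosb and Egr1 were not called either. The groups overlapped for each of these genes. Fosl1, a Fos relative that partners with Jun, measured 1.99, 2.83, 1.94 and 0 CPM in healthy and 111, 87.2 and 90.1 CPM in acute 24 h libraries (log2 fold change 5.83 ± 0.71, adjusted p = 1.81e-06). Of 31 AP-1 and immediate early genes 7 were higher and none lower, among them Maff (1.77 ± 0.35), the orphan receptor gene Nr4a2 (2.14 ± 0.38), the phosphatase gene Dusp5 (1.24 ± 0.30) and Srf, serum response factor (1.21 ± 0.20). Myc, also in this count, overlapped between the groups and was not called with the hepatocyte term (adjusted p = 0.283) or without any one of healthy replicates 2, 3 and 4 and acute 24 h replicates 1 and 2.

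Targets of the mechanosensitive coactivators YAP and TAZ were called higher in 9 of 25 cases and lower in 2. Besides Ccn2, F3 and Fosl1 these were Ankrd1, a nuclear ankyrin repeat protein (1.63, 0.585, 0.758 and 3.64 CPM to 119.7, 51.0 and 96.0 CPM, 5.73 ± 0.79), Tnfrsf12a, the receptor of TWEAK (6.80 to 9.45 CPM to 370.3 to 396 CPM, 5.60 ± 0.59), Axl, a receptor kinase (1.54 ± 0.15), and Fjx1 (2.90 ± 0.50). Myof and Nuak2, also called, were not called with the hepatocyte term (adjusted p = 0.392 and 0.126) or without healthy replicate 4 or acute 24 h replicate 3, nor was Myof without healthy replicate 3 or Nuak2 without acute 24 h replicate 1.

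Stress genes rose selectively. Of 32 targets of ATF4, the factor of the integrated stress response, 14 were higher and none lower (median log2 fold change 0.96, or 0.86 with the genes that 1 group lists at 0 set to their bound). Atf4 measured 217, 131, 130.3 and 150.2 CPM in healthy and 413, 476 and 446 CPM in acute 24 h libraries (1.5 ± 0.22). Its targets in serine and folate metabolism, Psat1 (2.96 ± 0.34) and Mthfd2 (3.12 ± 0.42), the amino acid carrier gene Slc7a5 (3.09 ± 0.29) and the stress regulators Nupr1 (2.85 ± 0.33) and Ddit4 (2.48 ± 0.28) rose. Asns, asparagine synthetase, was nearly absent in healthy libraries (0, 0, 0.253 and 0 CPM) and measured 11.3, 4.08 and 3.95 CPM in acute 24 h libraries (adjusted p = 0.00156, and adjusted p = 0.0610 with the hepatocyte term). Ddit3, the factor of this response tied to cell death, was not called, at 27.04 to 41.2 CPM in healthy and 24.8 to 42.8 CPM in acute 24 h libraries. Endoplasmic reticulum chaperones were called higher in 4 of 31 cases and lower in 2, the latter between 1 and 4 when a library was left out (1 without healthy replicate 4 or acute 24 h replicate 1 or 2, and 4 without acute 24 h replicate 3). With the hepatocyte term 2 were higher and 1 lower. As a share, 12.9% of the chaperones were higher and 6.45% lower, close to 9.41% and 12.5% over all genes tested. The same held for the antioxidant targets of NRF2, at 13.8% and 6.90%. The antioxidant targets of NRF2 were higher in 4 of 29 cases and lower in 2 (5 and 1 with the hepatocyte term), with heme oxygenase (Hmox1) from 27.2 to 40.4 CPM to 102 to 178 CPM (2.03 ± 0.32), while Nqo1 was at 4.25 to 9.43 CPM and 6.06 to 7.21 CPM, with no call, and Gsta4, a glutathione transferase, fell (-2.75 ± 0.28). Cdkn1a, the cell cycle inhibitor p21, measured 8.97, 4.29, 20.6 and 7.02 CPM in healthy and 41.1, 346 and 33.9 CPM in acute 24 h libraries (3.78 ± 0.78, and 1.87 without acute 24 h replicate 2). Of 27 p53 targets and cell cycle inhibitors 4 were higher and 4 lower, or 1 lower with the hepatocyte term, and Mdm2 was not called. The share was 14.8% in each direction, near the 9.41% and 12.5% over all genes tested.

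Metallothioneins, which bind zinc and copper, were among the strongest single changes. Mt1 measured 351, 214, 129 and 253 CPM in healthy and 3885, 2436 and 1732 CPM in acute 24 h libraries (3.50 ± 0.37), and Mt2 34.4, 0.878, 9.02 and 2.25 CPM and 1779, 923 and 805 CPM (6.65 ± 1.17). Among acute phase genes, the inhibitor gene Serpina3n rose from 6.71, 20.8, 24.9 and 85.2 CPM to 1771, 1831 and 1467 CPM (5.62 ± 0.70), Lcn2 from 0 to 0.693 CPM to 17.8 to 20.6 CPM and Saa3 from 0 to 1.13 CPM to 11.4 to 15.5 CPM. The Serpina3 genes form a cluster of near copies, so that reads could be split between them. C3, Hp and Hamp, which hepatocytes secrete, were lower, and C3 and Hp were not called with the hepatocyte term (adjusted p = 0.0618 and 0.875). Of 16 members 6 were higher and 4 lower, or 8 and 1 with the hepatocyte term.

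**Figure D4:**
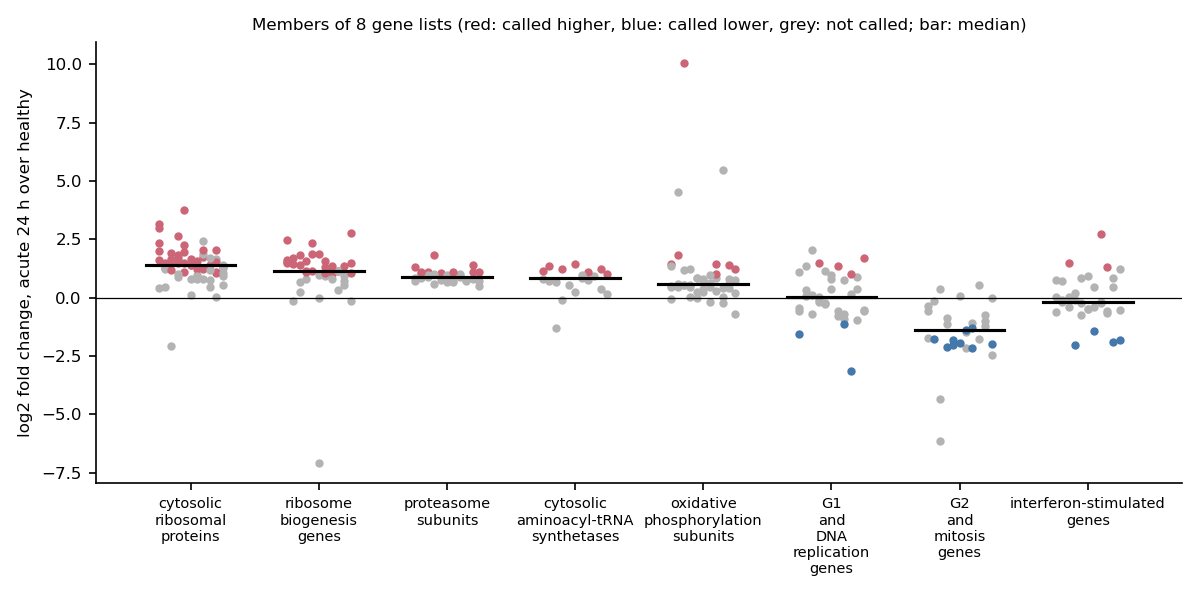
Log2 fold change of each tested member of 8 gene lists (1 point per gene; red called higher, blue called lower, grey not called) with a bar at the list's median. Ribosomal protein, ribosome biogenesis and proteasome genes lie above 0 almost throughout, with medians of 1.40, 1.16 and 0.90, whereas G2 and mitosis genes lie mostly below it.

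The machinery of protein synthesis rose broadly. Of 41 ribosome biogenesis genes 26 were higher and none lower (median log2 fold change 1.16). Nhp2, a protein of the snoRNPs that modify ribosomal RNA, measured 7.25, 9.26, 5.31 and 11.1 CPM in healthy and 70.6, 48.4 and 51.2 CPM in acute 24 h libraries (2.78 ± 0.38). Fbl, the methyltransferase fibrillarin, rose from 15.9 to 21.8 CPM to 48.6 to 61.2 CPM (1.58 ± 0.14, adjusted p = 3.39e-08), Nop16 from 16.6 to 21.9 CPM to 66.7 to 71.6 CPM (1.87 ± 0.27) and Ncl, nucleolin, from 156 to 190.5 CPM to 287 to 504 CPM (1.10 ± 0.15, and below 2-fold with the hepatocyte term or without acute 24 h replicate 1). With the hepatocyte term 17 of these genes were called. Cytosolic ribosomal proteins were higher in 37 of 62 cases and lower in none (median 1.40), or higher in 22 with that term. The 63 listed genes together summed to only 840 to 1404 CPM in healthy and 2919 to 3470 CPM in acute 24 h libraries. Most genes of this class have near-identical processed pseudogenes that could share their reads. Single members, and the size of the rise of the class, are therefore uncertain.

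Aminoacyl-tRNA synthetases, which charge tRNAs, were higher in 7 of 20 cases and lower in none. Hars rose from 20.8 to 29.5 CPM to 67.9 to 71.6 CPM (1.45 ± 0.14) and Yars from 37.2 to 45.4 CPM to 102 to 109 CPM (1.37 ± 0.13). With the hepatocyte term 3 synthetases were called, and without acute 24 h replicate 3 there were 4. Every one of the 31 proteasome subunits tested had a log2 fold change above 0, with a median of 0.90 and a range of 0.48 to 1.85, and 10 passed the fold minimum. Psmd14, a subunit that removes ubiquitin from the substrate, measured 18.9, 16.6, 12.8 and 23.3 CPM in healthy and 69.8, 67.4 and 56.3 CPM in acute 24 h libraries (1.85 ± 0.25). Subunits of the respiratory chain were higher in 7 of 45 cases and lower in none. Of 25 genes of glycolysis and glucose transport 8 were higher and 1 lower (none lower without healthy replicate 4 or with the hepatocyte term, 2 without healthy replicate 3), led by the glucose carrier gene Slc2a1 (47.0 to 70.6 CPM to 194 to 241 CPM, 1.91 ± 0.16), Eno2 (2.05 ± 0.24) and the lactate carrier gene Slc16a3 (1.75 ± 0.24).

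Mitosis genes did not rise. None of 29 G2 and mitosis genes was higher and 9 were lower, with low levels in both groups, but this count rested on single libraries: 4 without healthy replicate 3, 14, 3 and 2 without acute 24 h replicates 1, 2 and 3, and 2 with the hepatocyte term. Mki67, a marker of cycling cells, measured 9.70, 26.2, 23.3 and 4.59 CPM in healthy and 7.30, 1.82 and 3.25 CPM in acute 24 h libraries, and the groups overlapped (adjusted p = 0.0282, and adjusted p = 0.242 with the hepatocyte term). Of 36 genes of G1 and DNA replication 4 were higher and 3 lower, or none and 1 with the hepatocyte term. The shares, 11.1% and 8.33%, were close to the 9.41% and 12.5% over all genes tested. Ccne1, the cyclin that opens S phase, went from 0.433 to 1.60 CPM to 3.16 to 3.74 CPM (1.68 ± 0.33, adjusted p = 0.0714 with the hepatocyte term), and the helicase subunit gene Mcm4 fell from 44.1 to 48.4 CPM to 19.3 to 22.1 CPM (-1.14 ± 0.18).

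Cytokines of the IL-6 family rose. Il11 (ENSMUSG00000004371, chr7:4772373-4782859), a cytokine that acts on fibroblasts and hepatocytes, measured 0.544, 0.390, 0 and 0 CPM in healthy and 132, 131 and 128 CPM in acute 24 h libraries (log2 fold change 9.10 ± 0.64, adjusted p = 9.13e-10). Lif rose from 0 to 2.27 CPM to 20.1 to 42.3 CPM (4.57 ± 0.77) and the neurotrophic cytokine gene Clcf1 from 2.73 to 5.89 CPM to 11.1 to 29.3 CPM (2.53 ± 0.40). Il6 itself was at 2.02 to 5.46 CPM in healthy and 2.76 to 6.51 CPM in acute 24 h libraries and was not called. Receptors and downstream genes rose too: Osmr (1.67 ± 0.29), Il6ra (1.74 ± 0.32) and the kinase gene Pim1 (2.25 ± 0.19). Higher as well were Il4ra (1.73 ± 0.25) and Il17ra (3.08 ± 0.27), receptors of cytokines outside the IL-6 family. Socs3, the inhibitor that STAT3 induces, was at 3232 to 3939.8 CPM in healthy and 2123 to 3046 CPM in acute 24 h libraries and was not called. Of 25 members 11 were higher, Il4ra, Il17ra and Il33 among them, and none lower. The lower count was 1 with the hepatocyte term or without healthy replicate 1, 2 or 3 or acute 24 h replicate 2.

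Of 27 chemokines 8 were higher and 5 lower, or 9 and 2 with the hepatocyte term and 3 lower without healthy replicate 3 or 4 or acute 24 h replicate 2 or 3. Cxcl14 measured 3.44, 2.15, 2.36 and 8.84 CPM in healthy and 549, 323 and 215 CPM in acute 24 h libraries (6.42 ± 0.66). The eosinophil attractant Ccl11 rose from 3.71 to 5.89 CPM to 51.7 to 74.0 CPM (3.79 ± 0.50), the monocyte attractant Ccl7 from 14.3 to 33.4 CPM to 119 to 173 CPM (2.78 ± 0.44), and the neutrophil attractant Cxcl2 from 4.10 to 38.2 CPM to 50.7 to 88.9 CPM (2.05 ± 0.56). Cxcl12, which holds lymphocytes and stem cells in place, fell from 6088, 7747, 8231 and 8647 CPM to 3456, 2147 and 2165 CPM (-1.57 ± 0.25). Ccl2, another monocyte attractant, varied from 19.1 to 228 CPM in healthy and from 32.6 to 334 CPM in acute 24 h libraries and was not called, except with the hepatocyte term or without healthy replicate 4.

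Interferon-stimulated genes did not move as a group, 3 of 33 being higher and 4 lower, or 5 and 1 with the hepatocyte term. Irf1, a factor induced by interferon gamma, fell from 847 to 1173 CPM to 163 to 318 CPM (-2.02 ± 0.30). Bst2, which tethers virus particles, rose from 14.9 to 64.0 CPM to 252 to 312 CPM (2.73 ± 0.37) and Isg15, a ubiquitin-like modifier, from 94.3 to 130.0 CPM to 254 to 359.6 CPM (1.47 ± 0.23). Among TNF receptors, 4-1BB (Tnfrsf9) was listed at 0 in every healthy library and at 10.3, 5.56 and 2.02 CPM in acute 24 h libraries, at least 22.2-fold higher when the healthy libraries are set to 3 counts each. Relt (3.75 ± 0.47) and the TNF receptor gene Tnfrsf1a (1.68 ± 0.42) rose, and in all 7 of 31 members were higher and 6 lower, or 3 lower without healthy replicate 4 or acute 24 h replicate 2 and 1 with the hepatocyte term. None of 26 complement and antigen presentation genes was higher (1 without healthy replicate 4 or with the hepatocyte term) and 8 were lower, or 5 without healthy replicate 3 or acute 24 h replicate 3 and 1 with the hepatocyte term.

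Genes of the TGF-beta superfamily moved in both directions. Inhba, the activin A chain, measured 101, 74.9, 64.8 and 63.3 CPM in healthy and 280.1, 199.9 and 324 CPM in acute 24 h libraries (1.82 ± 0.31). Fstl3, an activin antagonist, was at 0, 0, 6.49 and 0 CPM in healthy and at 147, 109.5 and 30.6 CPM in acute 24 h libraries (adjusted p = 3.56e-04), and the BMP antagonist Nbl1 rose from 6.35 to 10.1 CPM to 54.2 to 89.4 CPM (3.11 ± 0.38). Bmp4 fell from 172 to 208 CPM to 70.4 to 87.5 CPM (-1.36 ± 0.19) and the receptor gene Acvr2a from 198 to 374 CPM to 69.9 to 84.8 CPM (-1.71 ± 0.35), yet the BMP target Id1 rose from 20.8 to 58.5 CPM to 81.6 to 269.7 CPM (2.49 ± 0.46). The ligand gene Tgfb3 rose (1.88 ± 0.28), and Tgfb1 went from 94.6 to 224 CPM to 300.2 to 316 CPM, a change below 2-fold. Of 41 members 7 were higher and 8 lower, and the lower count was 3 without healthy replicate 3, 4 without acute 24 h replicate 3 and 5 without healthy replicate 2 or acute 24 h replicate 2. With the hepatocyte term 9 were higher and 4 lower.

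Among growth factors 4 of 43 were higher and 6 lower (10 lower with DESeq2), shares close to those of all genes tested. The EGF receptor ligand epiregulin (Ereg) measured 16.2, 27.4, 9.18 and 44.2 CPM in healthy and 592, 437 and 769 CPM in acute 24 h libraries (4.63 ± 0.51), and the neurotrophin Bdnf rose from 2.78 to 6.83 CPM to 54.6 to 75.7 CPM (3.66 ± 0.38). Hgf, the hepatocyte mitogen that HSCs supply, was at 1093 to 1288 CPM in healthy and 1409 to 1961 CPM in acute 24 h libraries and was not called. Pdgfd, a ligand of the PDGF beta receptor, fell from 14.8 to 25.0 CPM to 1.04 to 1.67 CPM (-4.00 ± 0.39), and Igfbp4, a binding protein of insulin-like growth factors, from 905 to 1239 CPM to 156 to 237 CPM (-2.33 ± 0.29).

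Hedgehog and Wnt genes fell more often than they rose, 10 against 3 of 39, with 1 in place of 3 higher without acute 24 h replicate 1. Gas1 (ENSMUSG00000052957, chr13:60174405-60177365), a hedgehog co-receptor that also arrests growth, measured 180.5, 214, 268 and 207 CPM in healthy and 10.4, 14.5 and 11.7 CPM in acute 24 h libraries (-4.15 ± 0.30, adjusted p = 1.11e-09). The hedgehog ligand Dhh (-1.56 ± 0.34) and the receptor and target gene Ptch1 (-1.68 ± 0.26) were lower. Hhip, which captures hedgehog ligands, rose from 108 to 152 CPM to 309 to 334 CPM (1.35 ± 0.44, adjusted p = 0.0209, and adjusted p = 0.106 with the hepatocyte term, and not called without acute 24 h replicate 1). The Wnt receptor gene Fzd8 fell from 226 to 304 CPM to 49.5 to 55.8 CPM (-2.25 ± 0.20), and the Wnt antagonist Sfrp1 from 18.3 to 69.9 CPM to 3.86 to 8.64 CPM (-2.68 ± 0.46).

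Genes of the quiescent state were reduced but not extinguished. Of 28 tested, 12 were lower and 2 higher (median log2 fold change -0.70), and with the hepatocyte term 12 were lower and none higher. Their summed level was 37567 to 43378 CPM in healthy and 22517 to 28229 CPM in acute 24 h libraries. Colec11, a collectin of quiescent HSCs, measured 3481, 3542, 3539 and 2597 CPM in healthy and 588, 919 and 669 CPM in acute 24 h libraries (-2.18 ± 0.27). Vipr1, the receptor of vasoactive intestinal peptide, fell from 3584 to 4222 CPM to 806 to 1344 CPM (-1.87 ± 0.30), Reln, the extracellular protein reelin, from 1909 to 2898 CPM to 874 to 1104 CPM (-1.38 ± 0.23), and Angptl6 from 1048 to 1756 CPM to 92.0 to 159 CPM (-3.53 ± 0.41). Gfap (-2.14 ± 0.26) and Ngfr, the low affinity neurotrophin receptor (-1.96 ± 0.45), fell as well. Among genes called without overlap, the proteoglycan gene Prelp lost the most in CPM, from 6053 to 8308 CPM to 955 to 2360.2 CPM (-2.02 ± 0.24).

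Transcription factors that hold HSC identity were split. Lhx2, which keeps HSCs quiescent, fell from 511, 635, 698 and 571 CPM to 163, 133 and 140.4 CPM (-2.05 ± 0.29), and Zeb2 (-2.13 ± 0.26), Sox4 (-2.46 ± 0.26) and the glucocorticoid receptor gene Nr3c1 (-1.78 ± 0.23) fell similarly. Hand2 and Gata4 were not called. Runx2 rose from 2.99 to 6.73 CPM to 13.9 to 16.5 CPM (1.69 ± 0.24), and the mesodermal homeobox gene Meox1, listed at 0 in all healthy libraries, was at 5.34, 1.04 and 1.76 CPM. In all, 11 of 37 lineage factors were lower and 4 higher, or 7 and 2 with the hepatocyte term and 2 higher without acute 24 h replicate 1. Some of these are also clock genes. Nr1d1, REV-ERB alpha, fell from 117 to 211 CPM to 18.7 to 23.9 CPM (-3.02 ± 0.47), Dbp from 4.19 to 22.2 CPM to 0.176 to 1.69 CPM (-3.95 ± 0.95), and their antagonist Nfil3 rose from 13.1 to 46.1 CPM to 205 to 221 CPM (2.99 ± 0.41). Of 20 clock genes 6 were lower and 3 higher, or 3 lower without acute 24 h replicate 3 and 1 higher with the hepatocyte term. Clock genes vary with the hour of the day, and the hour of collection is not given in the sources used here.

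Retinoid and lipid genes showed little common direction. Of 24 retinoid genes 5 were higher and 6 lower, or 3 higher without acute 24 h replicate 1 and 2 lower with the hepatocyte term. Lrat, which esterifies retinol for storage, measured 2175, 822, 1548 and 2630.4 CPM in healthy and 1304, 1079 and 1067 CPM in acute 24 h libraries, with overlap and no call. The retinal reductase gene Dhrs3 fell from 42.0 to 109.9 CPM to 19.8 to 25.6 CPM (-1.86 ± 0.32). Aldh1a3, which makes retinoic acid, rose from 1.76 to 3.96 CPM to 8.43 to 26.4 CPM (2.49 ± 0.37), and Plin2, the coat of lipid droplets, from 243 to 295 CPM to 483 to 816 CPM (1.38 ± 0.28). Rbp4, Adh1 and Ces1d, also lower, are abundant in hepatocytes and were not called with the hepatocyte term (adjusted p = 0.637, 0.541 and 0.0816).

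Of 34 genes of cholesterol synthesis and handling 9 were higher and 3 lower, with 5 higher without acute 24 h replicate 3. Lss, lanosterol synthase, went from 8.32 to 13.6 CPM to 30.5 to 33.3 CPM (1.59 ± 0.28). The exporters Abca1 (-1.59 ± 0.28) and Abcg1 (-2.50 ± 0.45) fell. Ch25h, which makes 25-hydroxycholesterol, rose from 1.26 to 2.54 CPM to 161 to 236 CPM (6.74 ± 0.47). Fatty acid genes leaned downward, 8 of 32 lower and 3 higher (4 lower and 5 higher with the hepatocyte term, 5 higher without healthy replicate 4), with the desaturase gene Fads2 from 64.6 to 80.3 CPM to 12.4 to 17.6 CPM (-2.32 ± 0.30) and the phosphatase gene Lpin1 at -1.98 ± 0.31. Pdk4, which spares pyruvate (1.81 ± 0.31), and Angptl4, an inhibitor of lipoprotein lipase, rose, the latter from 58.3, 23.5, 19.9 and 43.8 CPM to 1840.3, 1502 and 988 CPM (5.31 ± 0.47).

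Receptors that set vascular tone changed. Both bradykinin receptors rose, Bdkrb2 from 0.272, 1.27, 0.843 and 0 CPM to 64.5, 67.2 and 86.0 CPM (6.92 ± 0.73) and Bdkrb1 from 0 to 0.293 CPM to 2.58 to 3.34 CPM. Angiotensin-converting enzyme (Ace) rose from 0 to 0.607 CPM to 5.30 to 9.57 CPM (4.43 ± 0.83), and the prostanoid receptor genes Ptger4 (1.62 ± 0.28) and Ptgir (1.83 ± 0.32) were higher. The receptor genes Calcrl, of CGRP and adrenomedullin, and Ptger2, of prostaglandin E2, fell from 1123 to 1708 CPM to 221 to 277 CPM (-2.46 ± 0.28) and from 163 to 255 CPM to 41.4 to 63.0 CPM (-1.97 ± 0.23). Of 28 prostanoid and vasoactive genes 10 were higher and 4 lower, or 2 lower with the hepatocyte term. Axon guidance genes, by which pericytes and vessels also sense each other, were lower in 12 of 36 cases and higher in 2. Plxnc1 (-2.63 ± 0.28), Plxnb1 (-2.27 ± 0.27), the semaphorin co-receptor gene Nrp1 (-1.56 ± 0.22) and the guidance cue Ntn1 (-1.33 ± 0.22) fell, and Slit3 rose from 0.453 to 1.43 CPM to 19.4 to 41.1 CPM (4.77 ± 0.60).

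Among the remaining genes that the naming rule gave, tissue-nonspecific alkaline phosphatase (Alpl) was high in acute 24 h HSCs. It measured 56.6, 68.9, 71.3 and 53.5 CPM in healthy and 2227, 2095 and 2054 CPM in acute 24 h libraries (5.09 ± 0.38, adjusted p = 1.70e-09). Mrap, which escorts the melanocortin receptor for ACTH, rose from 3.72 to 4.94 CPM to 109 to 159.7 CPM (5.04 ± 0.36), and Rin1, a Ras effector, from 0.453 to 3.62 CPM to 56.2 to 75.2 CPM (5.01 ± 0.47). Tceal8 went from 0.390 to 1.04 CPM to 170.5 to 191 CPM (7.82 ± 1.93, adjusted p = 0.00300, and adjusted p = 0.0756 with the hepatocyte term). The transcription factor gene Cebpb rose from 1045 to 1517 CPM to 3388 to 4146 CPM (1.48 ± 0.28) and the membrane protein gene Ifitm3 from 1286 to 1753 CPM to 3104 to 3329 CPM (1.06 ± 0.19, and below 2-fold without healthy replicate 4). Of the genes that lost the most CPM, Angptl2, an angiopoietin-like protein, fell from 1697 to 2538 CPM to 277 to 349 CPM (-2.81 ± 0.18, adjusted p = 4.04e-10), the collectin gene Colec10 from 1414 to 2294 CPM to 321 to 457 CPM (-2.16 ± 0.29) and Itm2b from 2742 to 3993 CPM to 1424 to 1724 CPM (-1.14 ± 0.16). HSCs near the central vein and near the portal vein differ in a few markers. Of 5 central markers Spon2 alone was called, or 2 without healthy replicate 1, and it rose from 50.5 to 331 CPM to 1208 to 1365 CPM (2.72 ± 0.50). Of 5 portal markers Ngfr fell and Tagln and Itgb3 rose, Itgb3 with adjusted p = 0.370 under the hepatocyte term.

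The acute 24 h HSCs were then set against HSCs 72 h after the same single injection (4 libraries, 11150326 to 12553594 counts), to show where the first day differed from a later time. Of 18758 genes 705 were higher at 24 h (3.76%) and 2110 lower (11.2%). All 29 G2 and mitosis genes were lower at 24 h than at 72 h, with a median log2 fold change of -5.30, and 22 of 36 genes of G1 and DNA replication were lower. Mki67 had a mean of 168 CPM at 72 h (log2 fold change -5.34 ± 0.78) and Top2a, topoisomerase II, of 41.4 CPM (-6.19 ± 0.71). Collagen genes were lower in 9 of 27 cases and higher in none. Col3a1 had a mean of 12942 CPM at 72 h (-2.62 ± 0.29) and Col1a2 of 4267 CPM (-2.37 ± 0.29). Ribosome biogenesis genes were higher at 24 h in 17 of 41 cases and lower in none.

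Several genes that rose by 24 h were lower at 72 h. Il11, the gene with the largest log2 fold change by the naming rule in this comparison, had a mean of 3.09 CPM at 72 h (5.40 ± 0.51), Fosl1 of 7.04 CPM (3.77 ± 0.64), Plaur of 11.4 CPM (3.69 ± 0.38), Mt1 of 287 CPM (3.22 ± 0.37), Mt2 of 51.2 CPM (4.51 ± 1.07) and Alpl of 237 CPM (3.17 ± 0.35). The Ras-related gene Rasd1 measured 136 to 206 CPM at 24 h and had a mean of 6.53 CPM at 72 h (4.69 ± 0.57). Hhip, higher than healthy at 24 h, had a mean of 16.3 CPM at 72 h (4.30 ± 0.48), below every healthy library. Gas1 and Itga8 showed the opposite course, with means of 164 and 459 CPM at 72 h (-3.75 ± 0.29 and -3.29 ± 0.49). Hepatocyte markers were also lower at 24 h than at 72 h in 14 of 20 cases, and Bhmt stood among the 3 strongest decreases (-7.57 ± 1.14), with the predicted genes Gm5096 and Gm43489 (-7.16 ± 1.82).

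**Figure D5:**
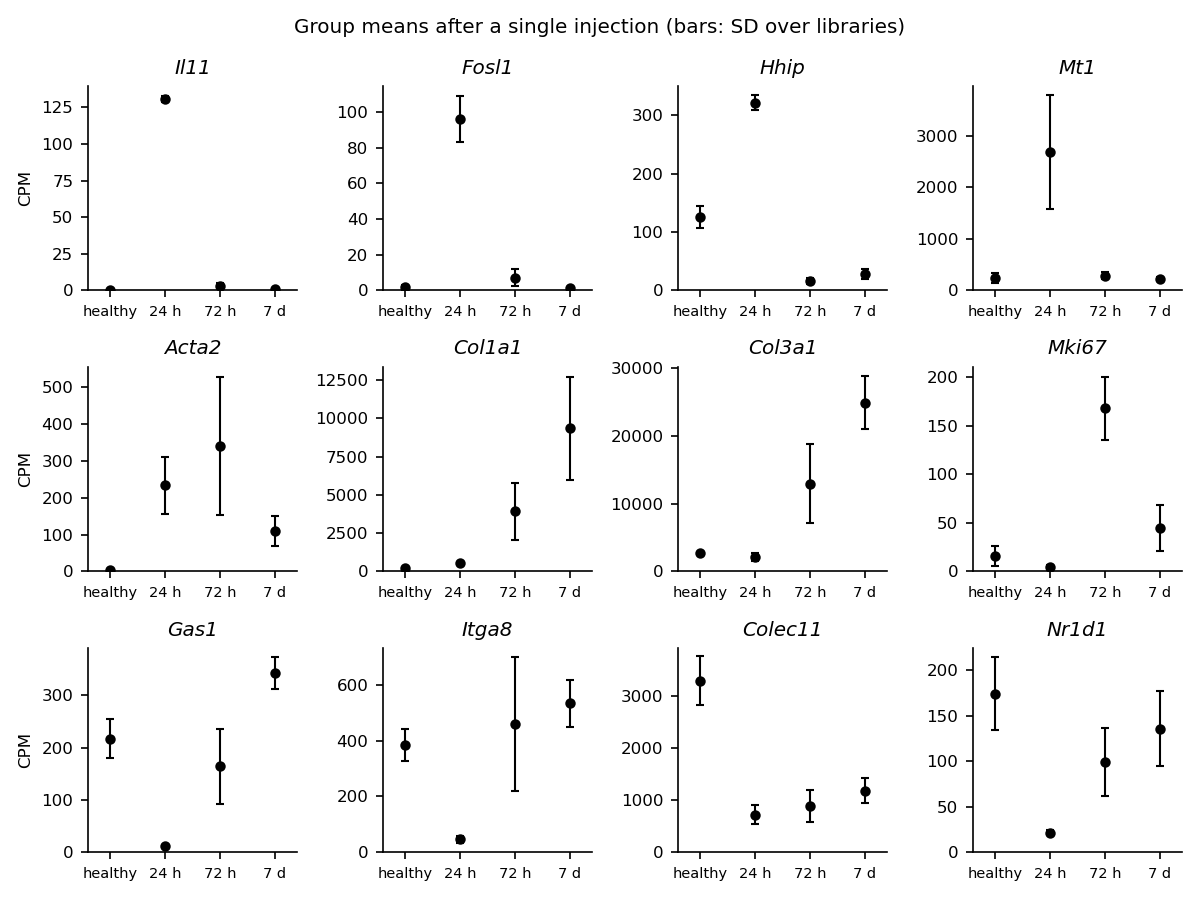
Group means in CPM (linear scale, bars SD over libraries) of 12 genes in healthy HSCs (4 libraries) and 24 h (3), 72 h (4) and 7 d (4) after a single injection. Il11, Fosl1, Hhip and Mt1 stand out at 24 h. Col1a1, Col3a1 and Mki67 are lower at 24 h than at 72 h, and Gas1 and Itga8 are at their lowest at 24 h.

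Against HSCs taken 24 h after the last of 8 injections (chronic 24 h, 4 libraries of 6947304 to 13045948 counts), which shares the time since an injection but whose mice were 8 to 10 weeks old when a course of semi-weekly injections began, 573 genes were higher in acute 24 h HSCs (3.05%) and 2036 lower (10.9%). All 14 macrophage markers were lower in acute 24 h libraries, whose sum of 108 to 179 CPM compares with 827 to 4630 CPM in chronic 24 h libraries. Gpnmb, the strongest decrease by the rule (-8.03 ± 1.15), is a gene of macrophages and other phagocytic cells, and the part of these cells in its level was not tested. Nrep (-7.35 ± 0.82) and the matrix gene Ltbp2 (-6.31 ± 0.64) were nearly absent after a first injection, at 0.615 to 2.14 CPM and 1.65 to 5.96 CPM, and had means of 189 and 281 CPM after repeated injections. Of 27 collagen genes 11 were lower and 1 higher, with Col1a1 at -3.32 ± 0.41. Of 24 matricellular genes 12 were lower, Tnc among them (-2.78 ± 0.45), and of 36 axon guidance genes 19 were lower and none higher. Gas1 (-4.91 ± 0.31), Itga8 (-3.21 ± 0.49), Igfbp4 (-2.39 ± 0.29) and Mmp2 (-3.17 ± 0.27) were lower after the first than after the last injection.

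Genes higher after the first injection than after the last included Hhip (4.89 ± 0.50), Mt1 (3.07 ± 0.36), Il11 (2.87 ± 0.45), Alpl (2.98 ± 0.35) and Bdkrb2 (3.97 ± 0.62). Egfem1, an EGF-like gene, was higher too (4.31 ± 0.29), although it was at 124 to 150.5 CPM in healthy and 67.8 to 71.3 CPM in acute 24 h libraries. Cdkn1a stood among the 3 largest differences (4.68 ± 0.82), and 1 of 3 acute 24 h libraries carried most of its level, with 2.77 without that library. Quiescent HSC genes were higher in 10 of 28 cases and lower in 2. G2 and mitosis genes, which set 24 h apart from 72 h, were higher in 1 of 29 cases and lower in none.

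The study's own fibrogenic program, a list of 173 genes that the study took from their rise with repeated CCl4 injury and their fall in recovery, was counted last. The list was chosen by the study on libraries of this series, the healthy and chronic 24 h ones included. Its direction against either of these groups is therefore not independent evidence. Of 172 members tested 135 were higher in acute 24 h than in healthy HSCs and 1, Nrep, was lower, though not without healthy replicate 4 or acute 24 h replicate 2 or 3 (median log2 fold change 2.73, or 2.41 with the genes that 1 group lists at 0 set to their bound). Over all genes tested 9.41% were higher and 12.5% lower than in healthy HSCs. Set against chronic 24 h HSCs, 9 members were higher and 72 lower (3.05% and 10.9% over all genes tested). Set against acute 72 h HSCs, 39 members were higher and 25 lower (3.76% and 11.2% over all genes tested). All comparisons share the 3 acute 24 h libraries.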

How the data were processed

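HSCs of healthy mice (4 libraries) and of mice 24 h after a first CCl4 injection (3 libraries) were compared. The members and gene lists were chosen with earlier results of these data known. Per the labels and the study's methods, the authors checked reads with FastQC, trimmed them, mapped them against GRCm38.p6 by STAR, ran StringTie, and deposited raw counts per gene in 1 table for all 27 libraries. Tool versions, annotation release, strand setting and the step from assembly to counts are not given in the sources used here. The table held 53379 genes, 16198 of them without a count, and gene names were taken from GENCODE M21, which left 105 without a symbol.

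From the counts as deposited, genes with low counts were removed (filterByExpr), TMM factors computed and edgeR's quasi-likelihood test fitted to all 27 libraries with 1 mean per group (edgeR 4.0.16, limma 3.58.1, R 4.3.3). Calls required both a 2-fold change and an adjusted p under 0.05. SE were back-calculated as the size of the log2 fold change over the square root of the quasi-likelihood F. They therefore restate the test, and levels are CPM. Fold bounds set libraries without a count to 3 counts. On simulated data for this comparison (18278 genes), the fit recovered 137 of 200 genes changed by 2 on the log2 scale, with 0 in the wrong direction and 3 false calls.

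Named genes were the 15 with the largest change in each direction among genes called without overlap at a mean log2 CPM of at least 3, the 10 with the largest gain and loss in CPM, the members of the lists, and the 3 with the largest change in each direction in both other comparisons. Alternatives were DESeq2 1.42.0, other scalings, filters and thresholds, only the groups compared, a replicate block, a hepatocyte marker term, and leaving out each library. Some single genes of the lists are not reported here.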

Additional observations from a re-analysis of the deposited data

Results flagged for a closer look

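Of 213 genes and marker sums given by level, 21 had 1 healthy library far from the other 3 (Dixon's test, comparing the gap to the nearest library with the range), and chance gives about 1 in 20 groups. Healthy replicate 4 was that library in 12 cases. The sums of hepatocyte markers (8582 CPM, nearest other healthy library 2452 CPM), pericentral markers (1347, nearest 736 CPM) and periportal markers (2169, nearest 545 CPM) were high in it. So were single genes of hepatocytes, Bhmt (364, nearest 51.6 CPM), Hp (516, nearest 126 CPM) and Rbp4 (265, nearest 64.3 CPM), and also Nrep (10.8, nearest 3.71 CPM), Plaur (4.51, nearest 1.95 CPM) and the tropomyosin gene Tpm4 (789.7, nearest 522 CPM). Lower than elsewhere in this library were the HSC genes Reln (1909, nearest 2802 CPM) and Colec11 (2597, nearest 3481 CPM) and the lactate carrier gene Slc16a3 (8.93, nearest 15.2 CPM).

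Healthy replicate 3 was high for Fstl3 (6.49 CPM, with 0 in the other 3), Asns (0.253 CPM, with 0 in the other 3), Fzd8 (304, nearest 235 CPM) and Ptch1 (93.3, nearest 81.0 CPM). Healthy replicate 2 was high for Nr4a2 (17.6, nearest 6.62 CPM) and Rasd1 (18.6, nearest 9.52 CPM) and low for Itgb3 (172, nearest 224 CPM). Healthy replicate 1 was low for Axl (225, nearest 293 CPM) and high for S100a9 (1.63 CPM, with 0 in the other 3). For Fstl3, Asns and S100a9 the 0 in the other 3 libraries fixes Dixon's ratio at 1, so the chance rate does not apply to them. The groups of 3 acute 24 h libraries are too small for this test.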

How the results depend on the processing

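Leaving out 1 library gave 1551 to 1780 genes higher and 1954 to 2375 lower than in healthy HSCs, 583 to 832 and 1703 to 2208 against 72 h, and 418 to 642 and 1508 to 2069 against chronic 24 h. Without the fold minimum 2915, 1589 and 1373 genes were higher in these 3 comparisons. A test against a 2-fold minimum called 622 higher and 938 lower, 138 and 971, and 105 and 950. With the hepatocyte term 1378 were lower than in healthy HSCs, 1359 lower than at 72 h, and 376 higher and 1171 lower than in chronic 24 h HSCs. It kept 1064 of the 1765 higher and 1138 of the 2353 lower calls against healthy. A fit to the 2 groups alone gave 1721 genes higher and 1782 lower than in healthy HSCs. That fit kept 1536 of the higher and 1701 of the lower calls. The cause of these shifts was not tested, beyond the thresholds' own construction.

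With a replicate block the counts were 1791 and 2311, 701 and 2037, and 572 and 1948. The numbers did not pair the libraries, since same-numbered deviations correlated at -0.0104 to -0.0044 against healthy and at most 0.05 elsewhere.

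Of 197 fold changes given for single genes, none changed direction. None lost its call under size factors of DESeq2, library size alone or a minimum mean of 1 CPM, 1 did with DESeq2 or the block, 2 without a filter or with the 2 groups alone, and 17 with the hepatocyte term. Leaving out a library ended 18 of 1379 calls, in 7 genes. Called genes with at most 3 counts in every library of a group (279 with so few in acute 24 h, 98 with so few in healthy libraries) have fold changes that depend on the prior count.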
